A study of Homo sapiens with 4 samples.

Results

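The 10 imprinted genes H19, MEG3, DLK1, PEG3, PEG10, MEST, CDKN1C, SNRPN, NNAT and PLAGL1 were followed in HuH7 hepatocellular carcinoma cells before and after repeated drug treatment and regrafting. Their members on the array were the probesets (sets of short probes for 1 transcript) that carry 1 of these symbols alone and whose names do not end in _x_at, the mark of possible cross-hybridization. This gave 21 of 54613 probesets, for 9 of the 10 genes. H19 had no such probeset, since the 2 probesets annotated to it also carry MIR675 and end in _x_at, so no value is given for it. A further 6 probesets of CDKN1C, MEG3 and PLAGL1 ended in _x_at and are given only beside the usable ones.

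HuH7 is an established human liver cancer line. Parental cells, F0, had 2 arrays, F0 (1) and F0 (2), and the resistant cells F6 and F12 had 1 array each. The resistant cells came from HuH7 tumors grown in NOD/SCID mice, a strain that lacks mature T and B cells. The mice were given JNJ-28841072, which blocks VEGF receptors and aurora kinases, and tumors that resisted it were moved into new mice, 6 times for F6 and 12 times for F12. The phenotype labels of F6 and F12 speak of sorafenib resistance, and it is not resolved here which of these drugs applies. No array came from tumors regrafted without the drug, so the effects of the drug and of regrafting cannot be told apart, and F6 and F12, labelled as subclones, have no replicate of their own. RNA was taken from tissue specimens, and fewer cells with a transcript cannot be told apart from less transcript per cell.

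An imprinted gene is transcribed mainly from 1 parental copy, because DNA methylation laid down in the egg or the sperm marks the copies differently. The genes lie in clusters that share a control region. In the liver several of them, among them H19, DLK1, MEG3, PEG10 and PLAGL1, are active in the fetus and low in the adult, and some return in liver tumors. The arrays measure total RNA of both copies, so they give expression and not the imprint itself.

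The RefSeq promoter table (GRCh38.p14) held 18 start sites for 5 of the 10 genes, H19, MEG3, MEST, PLAGL1 and SNRPN. The 250 bases before a start are shown for the 4 of these genes that were measured, since imprinting marks are known to lie at start regions. Of several starts, the one with the most CG pairs was taken among windows holding no other listed start of the gene. Capitals mark the motif TGCCGC on either strand, which the imprint-protecting factor ZFP57 is known to bind when methylated.
PLAGL1 (chr6:144008260-144008509, minus strand): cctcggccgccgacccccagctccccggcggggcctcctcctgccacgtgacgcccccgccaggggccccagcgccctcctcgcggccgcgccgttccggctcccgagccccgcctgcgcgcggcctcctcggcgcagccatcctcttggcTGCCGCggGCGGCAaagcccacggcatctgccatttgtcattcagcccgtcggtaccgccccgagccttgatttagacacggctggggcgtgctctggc
MEST (chr7:130491808-130492057, plus strand): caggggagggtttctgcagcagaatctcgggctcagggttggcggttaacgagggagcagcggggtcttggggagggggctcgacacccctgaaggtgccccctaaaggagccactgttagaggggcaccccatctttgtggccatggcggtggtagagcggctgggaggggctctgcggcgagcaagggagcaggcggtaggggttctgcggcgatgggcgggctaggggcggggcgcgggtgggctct
SNRPN (chr15:24954737-24954986, plus strand): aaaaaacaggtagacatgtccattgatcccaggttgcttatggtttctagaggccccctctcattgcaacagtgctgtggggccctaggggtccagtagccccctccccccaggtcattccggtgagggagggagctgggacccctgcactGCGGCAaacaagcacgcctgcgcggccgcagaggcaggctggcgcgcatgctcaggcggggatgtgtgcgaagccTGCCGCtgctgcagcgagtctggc
MEG3 (chr14:100825858-100826107, plus strand): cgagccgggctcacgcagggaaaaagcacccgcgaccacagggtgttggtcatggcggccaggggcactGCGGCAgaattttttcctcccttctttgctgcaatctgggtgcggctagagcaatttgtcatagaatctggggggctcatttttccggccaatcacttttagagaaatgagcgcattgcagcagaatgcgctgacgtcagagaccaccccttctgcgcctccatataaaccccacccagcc

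The PLAGL1 window held 32 CG pairs and 2 copies of the motif, 1 on each strand. The SNRPN window held 12 CG pairs and 2 copies, the MEG3 window 13 and 1, and the MEST window 16 and 0. A MEST window not shown, since it holds another start, had 20 CG pairs and 1 copy. Among all 18 windows of the 5 genes, some of them overlapping, 7 held the motif. Over all 35116 promoter windows of the same length the median was 11 CG pairs, and 12.7% held the motif on either strand. The PLAGL1 window lay at percentile 91.9 of CG pairs. The windows shown were picked for their CG pairs and those of the whole table were not, so the 2 are not alike. The PLAGL1 windows not shown held 1, 3, 1 and 21 CG pairs. A match is a stretch of letters and not a measured site, and methylation was not measured on these arrays.

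The MEST, MEG3 and H19 genes each also hold a microRNA. These are shown as further products of the same imprinted genes, and because the H19 probesets carry the name of MIR675. Mature microRNAs were not measured here. Capitals mark the seed, bases 2 to 8, which differs among them.
hsa-miR-335-5p (chr7:130496126-130496148, plus strand, GRCh38.p14): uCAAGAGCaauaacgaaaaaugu
hsa-miR-770-5p (chr14:100852409-100852431, plus strand, GRCh38.p14): uCCAGUACcacgugucagggcca
hsa-miR-675-5p (chr11:1996800-1996822, minus strand, GRCh38.p14): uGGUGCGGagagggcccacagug

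Values are log2 signals, so a difference of 1 is 2-fold, and levels are compared across arrays only within a probeset. Signals under 6 are treated as near background. Array medians lay between 4.67 and 4.85. Of the 21 probesets, 5 read at least 6 on 1 array, 1 each for MEST, PLAGL1, PEG10, CDKN1C and MEG3. The other 16, and with them every usable probeset of DLK1, NNAT, PEG3 and SNRPN, were under 6 on all 4 arrays, as were 55.3% of all probesets. Where a gene had several usable probesets, the one with the highest mean over the arrays represents it.

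**Figure D1:**
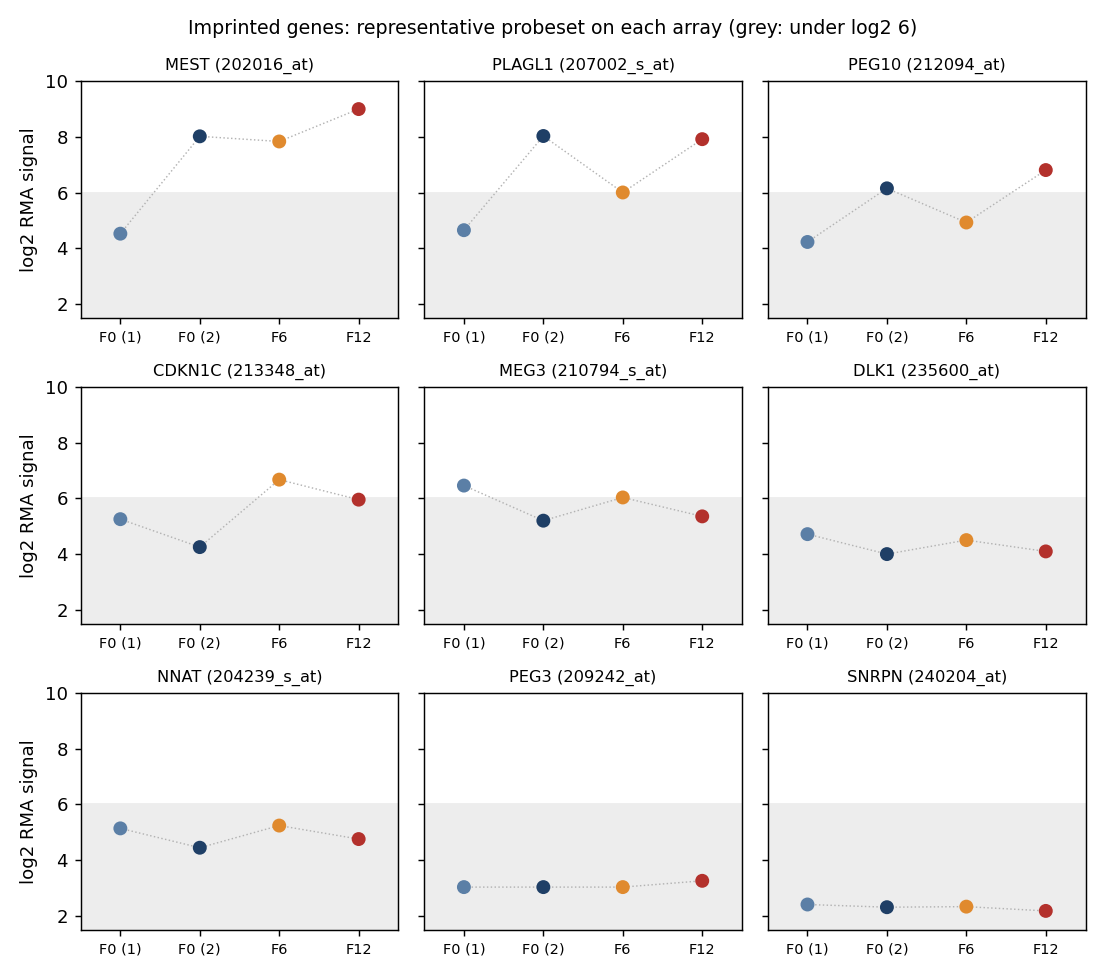
Each panel plots the log2 RMA signal of 1 imprinted gene's representative probeset (y axis) on the 4 arrays (x axis); points are single arrays, dotted lines only link them, and grey marks signals under 6. MEST, PLAGL1 and PEG10 are lowest on F0 (1), CDKN1C is highest on F6, and DLK1, NNAT, PEG3 and SNRPN stay under 6.

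MEST, PLAGL1 and PEG10, all expressed from the paternal copy, were low on F0 (1) and higher on F0 (2) and F12. This order did not follow the parental copy. The maternally expressed UBE3A and PPP1R9A shared it on their brightest probesets. The paternally expressed DLK1, NNAT and SNRPN were lower on F0 (2), though near background. On F0 (2), 25% of all genes were at least 2-fold above F0 (1). CDKN1C, expressed from the maternal copy, read above both parental arrays on F6 and on F12, but on 1 of its 2 usable probesets. In limma, a linear model with a moderated spread fitted over all 54613 probesets, 0 of the 21 passed an adjusted p of 0.05 in any of 4 comparisons (F6 against F0, F12 against F0, F12 against F6, and both resistant samples against F0). At an unadjusted p under 0.05 the count was also 0. Over all probesets limma called 0% in each comparison, and 34, 109, 137 and 104 probesets had an unadjusted p under 0.05. The error of the first 3 comparisons comes from the F0 pair alone, which leaves 1 residual degree of freedom. Since no label tells whether the F0 arrays were separate cultures or tumors, that spread may be technical. The wide gap within the F0 pair enters the error of every comparison, and no probeset of the whole table was called. The lack of calls therefore does not show that the members were unchanged.

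The F0 pair differed widely over the whole table, and this touches each result below. F0 (2) was at least 2-fold above F0 (1) for 21.4% of probesets and 2-fold below for 28.5%. The ribosomal RNA precursor RNA45SN5, which marks how much ribosomal RNA was labelled, read 12.96 on F0 (1), 6.87 on F0 (2), 11.92 on F6 and 6.54 on F12. Liver tumor markers were present, with 9 of 9 measured reading at least 6 on 1 array, as did 11928 of all 19775 genes. AFP read 8.88, 13.73, 11.95 and 12.60, in the order F0 (1), F0 (2), F6, F12, which is kept below. Of the 9 liver markers, 6 were at least 2-fold higher on F0 (2) than on F0 (1), against 25% of all genes. The other 3 were 2-fold lower, against 34.1%. Of markers of other cells, 2 of 8 for fibroblasts, 3 of 7 for endothelium, 2 of 6 for macrophages and leukocytes and 3 of 7 for neurons read 6 or more on 1 array. The marker genes COL3A1 (3.18, 3.16, 3.09 and 3.12), CDH5 (3.31, 2.55, 2.86 and 2.41) and PTPRC (3.28, 2.59, 3.09 and 2.41) were near background throughout. Other listed genes were not. The fibroblast genes PDGFRB (6.18) and THY1 (6.40) and the endothelial CLDN5 (6.04) passed 6 on F0 (1) alone. Among neuronal genes ENO2 (8.34, 7.28, 7.47 and 7.03) and SNAP25 (6.10, 6.41, 6.54 and 6.47) passed it on every array, and SYT1 (5.25, 7.72, 5.13 and 7.46) on F0 (2) and F12. The endothelial gene PECAM1 read 6.16, 6.33, 6.52 and 6.92, above 6 on every array and highest on F12, and ENG read 6.91, 5.88, 6.70 and 5.92. The summed linear signal of the fibroblast list lay between 167 and 323 and that of the endothelial list between 229 and 368, each highest on F0 (1). The macrophage and leukocyte list lay between 533 and 4166, most of it from LYZ (8.34, 11.98, 10.99 and 9.20), and the neuronal list between 368 and 522. Host cells in the grafts would be mouse, while the array is for human RNA, so these signals cannot be read as amounts of host cells. The part of other cells in the values below was not tested. CD14, a monocyte receptor, read 6.89, 6.22, 6.62 and 5.16, and so lay 2-fold below both parental arrays in F12, as did 1.37% of all genes. Its F12 signal was under 6, so this is not a measured fold. Of the liver markers SERPINA1, alpha-1-antitrypsin, was 2-fold above both parental arrays in 1 resistant sample, F6, at 12.43, 11.20, 13.82 and 12.03. In F6 0.576% of all genes were.

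MEST encodes a hydrolase-like membrane protein of the endoplasmic reticulum that is abundant in embryonic mesoderm and in enlarging fat cells. Its single usable probeset read 4.52 on F0 (1), 8.02 on F0 (2), 7.83 on F6 and 8.99 on F12. It was near background on F0 (1) alone, F6 lay within the parental range close to F0 (2), and F12 was the highest array. F12 was 4.47 above F0 (1) and 0.98 above F0 (2), just short of 2-fold above both. In limma F12 exceeded the F0 mean by 2.72 (SE 1.61, adjusted p = 1) and F6 by 1.56 (SE 1.61, adjusted p = 1). Without F0 (1) the F6 difference turned to -0.18.

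PLAGL1 encodes a zinc finger transcription factor that halts cell growth and is known to act on other imprinted genes. Its usable probeset, 207002_s_at, read 4.65 on F0 (1), 8.03 on F0 (2), 6.00 on F6 and 7.92 on F12. F12 sat beside F0 (2), F6 lay midway, and both were inside the parental range. The 2 PLAGL1 probesets ending in _x_at had the same order of F0 (1) below F6 below F0 (2), but with F12 above F0 (2), at 4.28, 7.53, 5.76 and 8.05 for 209318_x_at and at 4.08, 7.27, 5.52 and 7.45 for 207943_x_at. F12 exceeded the F0 mean by 1.58 in limma (SE 1.59, adjusted p = 1), a difference that turned to -0.11 without F0 (1). HYMAI, the untranslated transcript that shares the imprinted start region of PLAGL1, read between 2.32 and 2.74 on all arrays.

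PEG10 encodes a retrotransposon-derived protein needed in the placenta and often raised in liver cancer. The probeset 212094_at read 4.23 on F0 (1), 6.15 on F0 (2), 4.93 on F6 and 6.81 on F12. Only F0 (2) and F12 were above background, with F12 0.66 above F0 (2). The second probeset, 212092_at, kept the same order over the arrays with a smaller span, at 4.60, 5.29, 5.06 and 5.71, all under 6. By limma F12 differed from the F0 mean by 1.62 (SE 1.31, adjusted p = 1) on the first and by 0.76 (SE 1.17, adjusted p = 1) on the second.

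CDKN1C encodes the cyclin-dependent kinase inhibitor p57, a brake on the cell cycle that is expressed from the maternal copy. The probeset 213348_at read 5.26 on F0 (1), 4.26 on F0 (2), 6.68 on F6 and 5.96 on F12. Both resistant samples lay above both parental arrays, F6 by 1.42 and 2.42 and F12 by 0.70 and 1.70, but only F6 read above 6, so these differences involve signals near background and are not measured folds. The other usable probeset, 219533_at, did not show this, at 5.63, 4.30, 5.23 and 4.39. Among the 3 CDKN1C probesets ending in _x_at, 219534_x_at read 6.12, 4.53, 6.82 and 5.83, 213182_x_at read 6.53, 5.07, 6.75 and 5.74, and 216894_x_at read 6.89, 5.27, 6.78 and 5.99. F6 was thus above both F0 arrays on 3 of the 5 probesets, and F12 on 1. In limma both resistant samples together exceeded F0 by 1.56 (SE 0.60, adjusted p = 1) on 213348_at, and F6 alone by 1.92 (SE 1.20, adjusted p = 1).

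**Figure D2:**
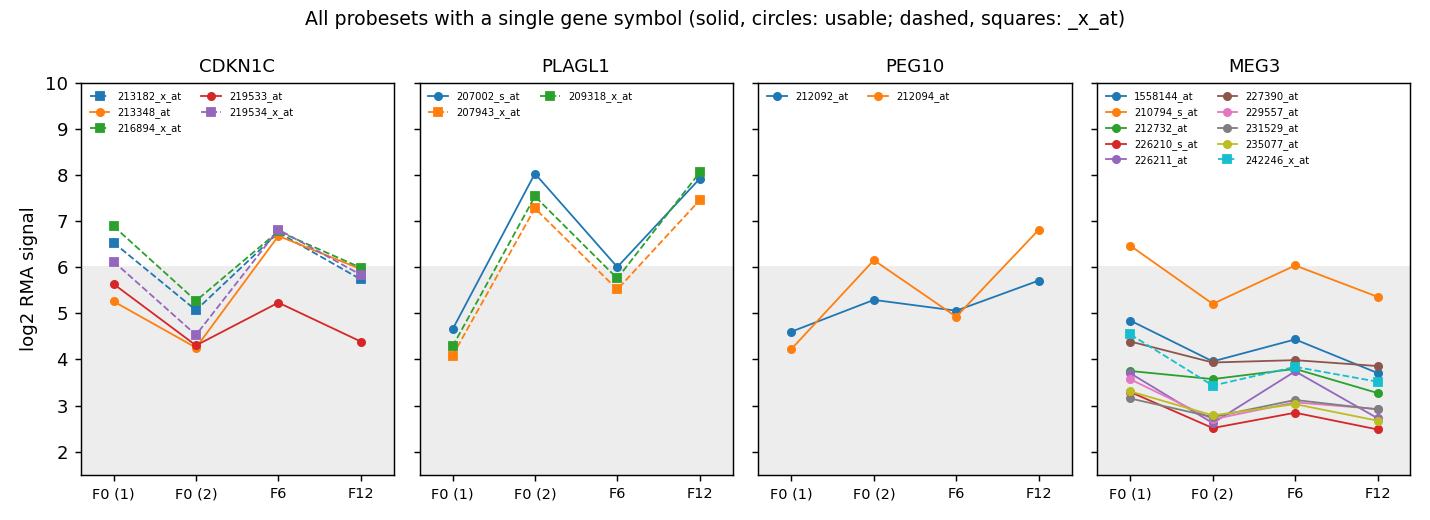
Log2 RMA signal (y axis) of every probeset with a single symbol for CDKN1C, PLAGL1, PEG10 and MEG3 on the 4 arrays (x axis); each line is 1 probeset, solid with circles where usable and dashed with squares for _x_at. The 3 PLAGL1 probesets run together, while the CDKN1C probesets part on F0 (1), between 5.26 and 6.89, and on F6, where 219533_at stays at 5.23.

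MEG3 is a long noncoding RNA of the maternal copy, and DLK1, a Notch-like membrane protein that marks hepatoblasts, is its paternally expressed neighbor in the same cluster. Among 9 usable MEG3 probesets only 210794_s_at reached 6, with 6.46 on F0 (1), 5.20 on F0 (2), 6.04 on F6 and 5.36 on F12. The other 8 lay between 2.48 and 4.84. All 9 were lower on F0 (2) than on F0 (1), as were 79.8% of the 30204 probesets under 6 on all arrays. DLK1 read 4.72, 4.01, 4.51 and 4.10 on 235600_at and 4.13, 3.17, 3.54 and 2.91 on 209560_s_at, so no DLK1 signal above background was seen on any array. DIO3, the thyroid hormone deiodinase at the far end of this cluster, read 6.53, 4.90, 5.74 and 5.57.

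NNAT, a small membrane protein of developing neurons, read 5.14, 4.45, 5.24 and 4.76. BLCAP, the gene whose intron holds NNAT, read 9.23, 8.34, 8.85 and 8.59, higher than 6 on every array. PEG3 encodes a zinc finger protein, and its probeset 209242_at gave the same value, 3.03, on F0 (1), F0 (2) and F6 and 3.26 on F12, while 209243_s_at lay between 2.34 and 2.56. SNRPN, a splicing protein gene of the Prader-Willi region, had 1 usable probeset, at 2.41, 2.31, 2.33 and 2.18. A further 11 probesets carry SNRPN together with other symbols and were not used, so low expression of the gene cannot be read from that 1 probeset.

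The 16 member probesets under 6 had differences near those of the whole near-background table. Their median difference between F0 (2) and F0 (1) was -0.61, against -0.55 for all 30204 such probesets. F12 differed from the F0 mean by a median of -0.28, against -0.23, and F6 by 0.017, against -0.0038. Over the 9 genes the median difference from the F0 mean was 0.14 for F6 and 0.23 for F12, against 0.06 and -0.24 over all 19775 genes. These 9-gene medians are the values of DLK1 in F6 and of PEG3 in F12, both under 6 on all arrays. They are therefore not read as a shift of the set. When _x_at probesets could represent a gene, the median for F12 was -0.036.

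Between the parental arrays, MEST, PLAGL1 and PEG10 were at least 2-fold higher on F0 (2), 3 of 9 genes against 25% of all genes. Among genes reading at least 6 on 1 array they were 3 of 5, against 39.4% of 11928. PEG10 stands among those 5 only through F0 (2) and F12. MEG3 and CDKN1C were 2-fold lower on F0 (2), 2 of 9 against 34.1% and 2 of 5 against 35.1%. CDKN1C was 2-fold above both F0 arrays in F6, 1 of 9 genes, against 0.576% of all genes. Among genes reading at least 6 it was 1 of 5, against 0.914%, and it stands there through its F6 signal alone. In the other direction 0 of 9 were 2-fold below both, against 0.561%. In F12 the counts were 0 of 9 above, against 1.93%, and 0 of 9 below, against 1.37%. The F6 count above both was 0 with the mean of each gene's probesets and 0 with _x_at probesets included. It rests on the CDKN1C probeset 213348_at, which was chosen by a mean that includes F6 and F12. Over the F0 arrays the other usable probeset, 219533_at, was the higher, with a mean of 4.97 against 4.76. The CDKN1C counts here therefore depend in part on that choice. Against F0 (1) alone the counts above were 3 of 9 in F6 and 3 of 9 in F12, where 17.1% and 25% of all genes were. Against F0 (2) alone they were 1 and 1, CDKN1C in both, where 15.8% and 2.99% of all genes were. PEG10 and PLAGL1 were 2-fold below F0 (2) in F6, as were 20.3% of all genes, and MEG3 was 2-fold below F0 (1) in F12, as were 32%. F12 was 2-fold above F6 for MEST (1.16), PLAGL1 (1.91) and PEG10 (1.88), 3 of 9, against 20.2% of all genes. Among genes reading at least 6 these were 3 of 5, against 31.2%. F12 was 2-fold below F6 for 0 of 9, against 14.7% of all genes.

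Much of the table varied along the line from F0 (1) to F0 (2). With F0 (1) at 0 and F0 (2) at 1, a least-squares fit over all probesets put F6 at 0.380 and F12 at 0.955, and each probeset's value expected from that position was subtracted. PLAGL1 then differed from its expected value by 0.070 in F6 and 0.037 in F12, and the main PEG10 probeset by -0.032 and 0.74. MEST lay 1.98 above in F6 and 1.13 in F12, and CDKN1C, on 213348_at, 1.80 and 1.65. For CDKN1C both F0 signals and the F12 signal were under 6, so its differences rest on signals near background, as the expected value of MEST does in part through F0 (1). The probeset 213348_at represents CDKN1C by a mean that includes F6 and F12. The other usable CDKN1C probeset, 219533_at, differed from its expected value by 0.10 in F6 and 0.022 in F12. Among the 9 genes MEST and CDKN1C alone were at least 2-fold above the expected value, both in F6 and in F12. Of all genes, 4.98% were in F6 and 3.35% in F12. Among genes reading at least 6 on 1 array they were 2 of 5, against 8.14% in F6 and 4.44% in F12. None of the 9 was 2-fold below, against 2.49% of all genes in F6 and 3.33% in F12. The spread of all probesets about the fit was an SD of 0.51 in each array, a spread over probesets and not a replicate error, and the fit carries no test. After this subtraction F12 was below F6 for MEST by -0.85.

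**Figure D3:**
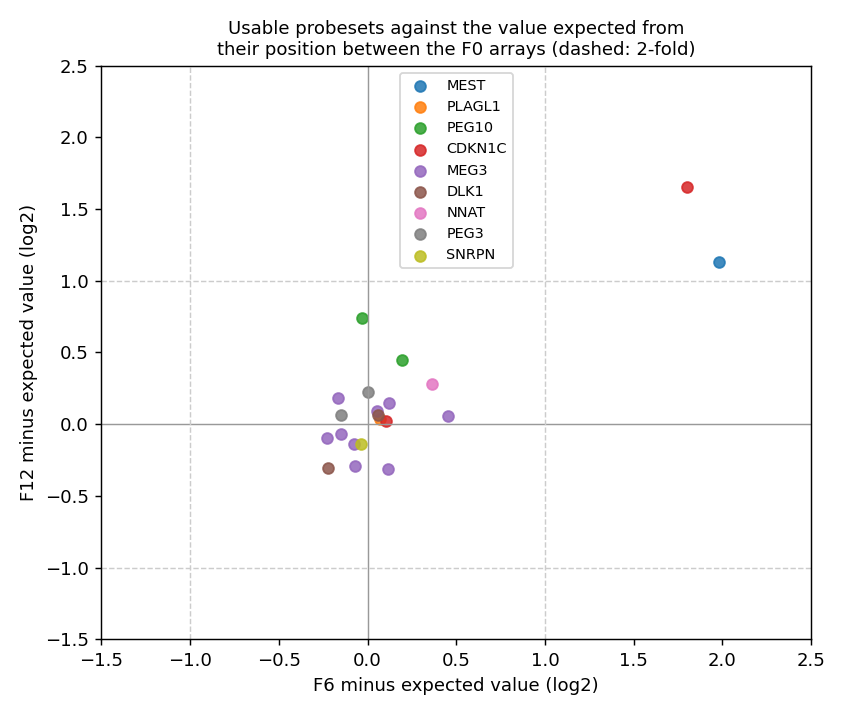
Each point is 1 of the 21 usable probesets, placed by the log2 difference of F6 (x axis) and of F12 (y axis) from the value expected from its position between the F0 arrays; dashed lines mark 2-fold. The MEST probeset (1.98 and 1.13) and CDKN1C 213348_at (1.80 and 1.65) lie beyond both upper lines, and the other 19 lie inside all of them.

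The genes nearest in pattern over the 4 arrays were found by the root mean square distance between log2 profiles centred on their own means, among 11653 other genes. For PLAGL1 they were the zinc finger gene ZNF227 (distance 0.027) and USPL1 (0.039), and for PEG10 KLHDC2 (0.044) and the tetraspanin TSPAN5 (0.046). MEST was nearest to asparagine synthetase, ASNS (0.117; 8.60, 12.33, 12.07 and 13.02), and to the kinase gene PRKD1 (0.122). CDKN1C was nearest to the transcription factor ZBTB16 (0.101; 6.61, 5.80, 8.01 and 7.23) and to VWCE (0.159). With 4 arrays such a likeness is a description only.

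Other imprinted genes were counted from lists of textbook members. Over all genes, 11928 of 19775 read at least 6 on 1 array. Of 18 measured genes listed as paternally expressed, 9 read at least 6 on 1 array, and 0 lay 2-fold beyond both F0 arrays in F6 or F12. Of 14 listed as maternally expressed, 10 read at least 6, with 1 below both F0 arrays in F6, against 0.561% of all genes, and 2 in F12, against 1.37%, and 0 above. Those were TFPI2 in both and PHLDA2 in F12. IGF2, the growth factor gene that shares its control region with H19, had only probesets that also carry INS-IGF2, so no value is given. In limma none of these genes passed, the smallest adjusted p over all probesets being 1 in each comparison.

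Around PEG10, the listed imprinted genes within 1 megabase did not share 1 pattern. SGCE, a sarcoglycan gene that shares the PEG10 start region, read 5.91, 9.68, 6.87 and 9.86, and PPP1R9A, an actin-binding protein gene, 3.14, 7.55, 4.79 and 8.41. Both were higher on F0 (2) and F12 than on F0 (1) and F6, as PEG10 was. TFPI2, a protease inhibitor, read 5.97, 6.02, 4.09 and 3.31, lower on both resistant samples than on either parental array. Its parental signals were at the background limit of 6 and the resistant ones below it, so no fold is given, and its other probeset was under 6 on all arrays.

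**Figure D4:**
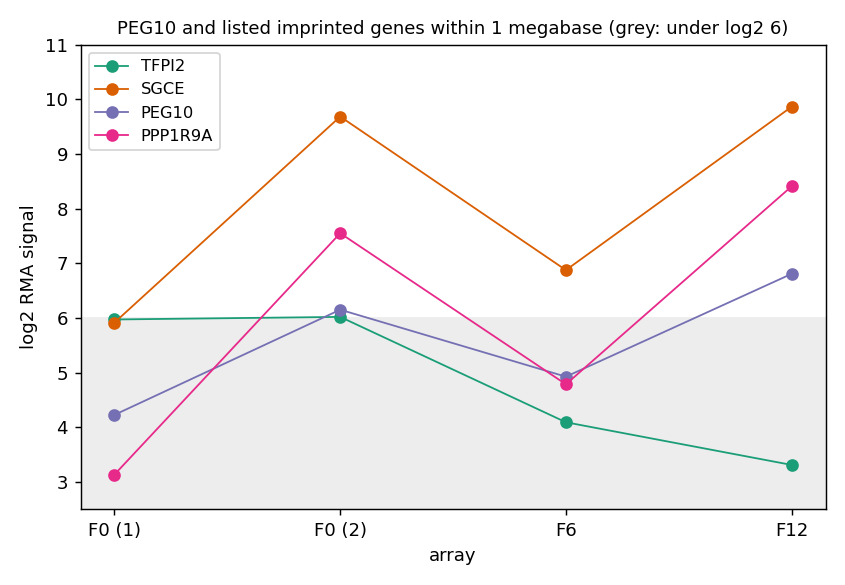
Log2 RMA signal (y axis) of PEG10 and of the listed imprinted genes TFPI2, SGCE and PPP1R9A, which lie within 1 megabase of it, on the 4 arrays (x axis); lines link the arrays of 1 representative probeset, whose heights are not compared between genes. PEG10, SGCE and PPP1R9A peak on F0 (2) and F12, while TFPI2 reads 6.02 on F0 (2), 4.09 on F6 and 3.31 on F12.

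In the chromosome 11 cluster of CDKN1C, KCNQ1 and PHLDA2 did not follow the CDKN1C probeset 213348_at. Like the other usable one, 219533_at, both genes were higher on F0 (1) and F6 than on F0 (2) and F12. Such an order is not particular to this cluster, since the fit over all probesets put F6 at 0.380 and F12 at 0.955. The maternally expressed PHLDA2, a growth-restraining placental gene, read 10.88, 9.67, 10.65 and 8.36 on its brightest probeset, lowest on F12. Its other 2 probesets read 4.83 and 2.80 on F12 against 4.90 and 2.48 on F0 (2), and so did not lie 2-fold below F0 (2). The potassium channel gene KCNQ1 read 7.54, 6.31, 7.24 and 6.27, and KCNQ1OT1, the antisense RNA that silences this cluster on the paternal copy, 5.86, 6.90, 5.85 and 6.87. Beside SNRPN, the ubiquitin ligase gene UBE3A read 5.62, 10.63, 8.01 and 11.03, and ATP10A, a lipid flippase gene, 6.80, 5.42, 6.36 and 5.42, with the opposite order between F0 (1) and F0 (2). Beside MEST, the carboxypeptidase gene CPA4 read 5.84, 4.72, 6.28 and 4.81, lowest on F0 (2) and F12.

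Of 12 measured genes that protect imprints or insulate their clusters, 6 were at least 2-fold higher on F0 (2) than on F0 (1), against 25% of all genes, and 1 was 2-fold lower, against 34.1%. Among the 9 of them reading at least 6 on 1 array the counts were also 6 and 1, against 39.4% and 35.1% of such genes. None lay 2-fold above both parental arrays in F6 or F12, against 0.576% and 1.93%. UHRF1, which guides the maintenance methylase to replicated DNA, was the 1 gene below both, in F12, against 1.37% of all genes, at 10.22, 9.61, 10.23 and 8.16. The methylase DNMT1 read 8.44, 10.11, 9.69 and 10.09, and TRIM28, the corepressor that ZFP57 recruits, 11.88, 8.75, 11.77 and 8.95. ZFP57 itself lay between 4.68 and 5.23, near background. ZNF445, which acts alongside ZFP57, read 4.86, 8.71, 6.92 and 8.66, the same order of arrays as PLAGL1. RNA45SN5 was high on F0 (1) and F6 and low on F0 (2) and F12, as TRIM28 was, and the reverse of ZNF445. Its part in these values was not tested.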

How the data were processed

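Total RNA of 4 samples (2 F0, 1 F6, 1 F12) was measured on 1 expression array each. The deposited log2 values were made by the authors with RMA in the affy package, per the submitters' processing notes, with no settings or versions named. RMA subtracts background, by its usual settings sets the arrays to 1 distribution, and merges the probes of a probeset. The deposited arrays did not share 1 distribution. Their upper quartiles were 6.33 on F0 (1), 6.96 on F0 (2), 6.53 on F6 and 6.90 on F12. Values have no counts or depth behind them, and the number of arrays limits the precision. Gene names came from the platform annotation. Of 54613 probesets 41091 had 1 symbol, 1801 several and 11721 none.

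limma 3.58.1 in R 4.3.3 (lmFit, eBayes) was fitted on all probesets, with Benjamini-Hochberg adjustment and a threshold of 0.05, and was tested on simulated data. F6, F12 and F0 were 3 groups, and the resistant pair against F0 was a 2-group fit. The members and lists were chosen with earlier results of these data known. The rule named all members, list genes reading at least 6 and lying 2-fold beyond both F0 arrays, and the 2 nearest genes in pattern; neighbors and other list genes were named after their values were seen. Promoters and microRNAs came from RefSeq.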

Additional observations from a re-analysis of the deposited data

How the results depend on the processing

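In limma the count of 0 calls held in each comparison with 1 probeset per gene, a minimum of 6 on 1 array and repeated quantile normalization, and, for both resistant samples against F0, without either F0 array. With a prior variance that follows the mean, F12 against F0 had 1 call, ADH1B (2.00, 2.12, 2.00 and 5.40), near background throughout. Leaving out an F0 array leaves no residual degrees of freedom in the 3-group fit, so those tests have no value.

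The count of genes 2-fold above both F0 arrays in F6 was 0 with the mean of probesets and 0 with _x_at probesets included, and between 1 (without F0 (1)) and 3 (without F0 (2)) with 1 F0 array left out. In F12 it was 1 (MEST) with repeated quantile normalization, and between 1 (without F0 (1)) and 3 (without F0 (2)). The counts below both were between 0 and 2 (without F0 (1)) in F6 and between 0 and 1 (without F0 (2)) in F12. Of the 9 member differences of at least 2-fold, 5 values among 48 changed sign. Those were MEST in F6 (between -0.18 and 3.31) and PLAGL1 in F12 (between -0.11 and 3.26) with 1 F0 array left out, negative without F0 (1), CDKN1C in F12 with _x_at probesets included (-0.0905), and F12 minus F6 after subtraction of the expected position for MEST (-0.85) and PLAGL1 (-0.0332). The cause was not tested, beyond the spread of the F0 pair in the first 2. No paired analysis was possible because F6 and F12 carry no replicate numbers.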
